A study of Mus musculus with 6 samples.

Results

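Enah, Vasp, Evl, Diaph1, Pfn1, Cfl1, Cfl2, Wdr1, Cap1 and Capzb encode proteins that lengthen, cap, sever and recycle actin filaments. They are 10 of the 55453 genes in the deposited table of mouse aortic RNA, all 10 passed the filter on low counts, and they were taken by name, with their difference between the 2 genotypes already known. Their homozygous against heterozygous differences are therefore only described here. Test outcomes for them are printed below, but nothing is read from those. All mice carried Itga8-CreERT2, a tamoxifen-inducible Cre recombinase expressed from a smooth muscle integrin locus, with floxed Srf, which encodes serum response factor, a transcription factor. The heterozygous controls had 1 floxed allele and the homozygous conditional knockouts had 2, and values below are given in the order of replicates 1, 2 and 3 for the controls and replicates 2 and 3 for the knockouts. Both genotypes received tamoxifen in 5 daily doses of 33 mg/kg by intraperitoneal injection, and tissue was collected 10 days after dosing ended. Each aorta was stripped of adventitia and endothelium and frozen singly, and poly(A) libraries were counted for 3 heterozygous and 2 homozygous mice. The controls thus also lose 1 copy of Srf in recombined cells, cells without Cre activity keep Srf in both genotypes, and no aorta without Cre is part of the comparison. One homozygous sample was set aside by the submitters as an outlier.

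Actin filaments grow at their barbed ends, where formins such as Diaph1 and the Ena/VASP proteins hold the end open and add monomers delivered by profilin. Capping protein stops that growth, cofilins cut old filaments with the help of Wdr1, and cyclase-associated protein returns the released monomers to a form that can polymerise. In smooth muscle this turnover remodels the filaments on which myosin pulls, and serum response factor is a known activator of many actin cytoskeleton genes.

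Library totals ran from 26177821 to 34311855 counts. Srf stood at 56.1, 64.4 and 68.3 CPM (counts scaled to library size after edgeR's TMM method) in heterozygous replicates 1, 2 and 3 and at 45.0 and 38.6 CPM in homozygous replicates 2 and 3, so its groups did not overlap. Smooth muscle markers were abundant throughout, with Myh11, smooth muscle myosin, at 5165 CPM or more in every library. The summed level of the 10 smooth muscle markers was 25650 to 27230 CPM in heterozygous and 15010 to 15580 CPM in the 2 knockouts. A second list of 10 mural cell markers, not contractile genes, summed to 4067 to 5279 CPM against 3389 to 4078 CPM, with overlap. Of these, 6 had a negative and 4 a positive log2 fold change. The groups overlapped for 7, while 2 stood lower and 1 higher without overlap. In whole-tissue RNA, fewer smooth muscle cells and less RNA per cell cannot be told apart, here and for every gene below. Marker levels of other tissues differed between the groups as well. Skeletal muscle markers summed to 685, 329 and 10.3 CPM in heterozygous replicates 1, 2 and 3, where Myh4 and Pvalb were at 0 in replicate 3, and to 1015 and 2756 CPM in homozygous replicates 2 and 3. Macrophage markers summed to 293 to 412 CPM against 475 to 622 CPM and adipocyte markers to 1746 to 2626 CPM against 3156 to 3351 CPM, with no marker of either list at 0. Brown adipocyte markers summed to 255 to 672 CPM against 989 to 1058 CPM. Erythrocyte markers lay the other way, at 37.9 to 297 CPM against 23.9 to 28.9 CPM, and endothelial markers were lowest in homozygous replicate 3, at 432 CPM against 775 to 1131 CPM in the other 4 libraries. The part of these tissues in the differences below was not tested.

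Of the 10 actin genes, 9 stood lower in the homozygous libraries and 1, Evl, stood higher. Levels ran from 46.5% of the heterozygous level for Enah to 88.8% for Diaph1, and Evl was at 117%. In all 9 the homozygous libraries lay below every heterozygous library, while over all 18192 genes tested this held for 18.2%, and 52.8% of the genes had a negative log2 fold change. The median log2 fold change, homozygous over heterozygous, was -0.42 over the 10 genes and -0.02 over all genes tested. Abundant genes were more often lower than rare ones. Among the 1810 genes whose mean level lay between those of the least and the most abundant of the 9, from 98.8 to 829 CPM, 74.5% had a negative log2 fold change, the groups of 39.7% did not overlap in that direction, and the median was -0.10. By edgeR's quasi-likelihood test with Benjamini-Hochberg adjustment over all genes 0 of the 10 were called in either direction, as were 0.0% of all genes. At an unadjusted p under 0.05 that test gave 8 of the 10 lower and 0 higher, against 6.75% of all genes lower and 9.04% higher. The same test without the low-count filter called 5 of the 10 lower and 0 higher, against 1.42% of the 30400 genes it then tested lower and 3.23% higher. DESeq2 called 5 of the 10 lower, Enah, Vasp, Pfn1, Wdr1 and Cap1, against 2.62% of the genes it tested, and it called 0 of them higher against 3.35%. Since the 10 were chosen on this comparison, nothing is read from these counts.

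**Figure D1:**
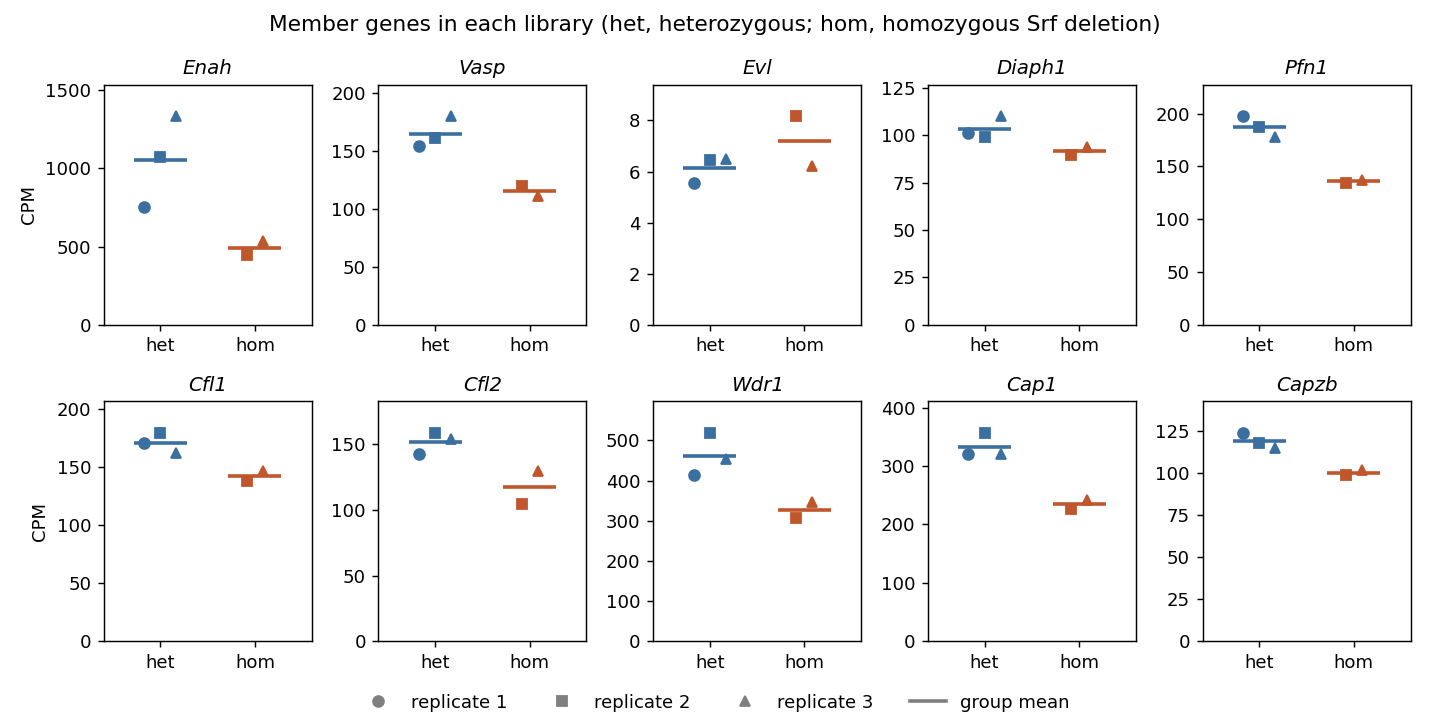
CPM of each of the 10 genes in every library, on axes that start at 0. Symbols give the replicate number, blue the heterozygous and orange the homozygous libraries, and bars the group means. Evl is the 1 gene whose groups overlap, and Enah has the widest heterozygous spread, from 754 to 1334 CPM.

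**Figure D2:**
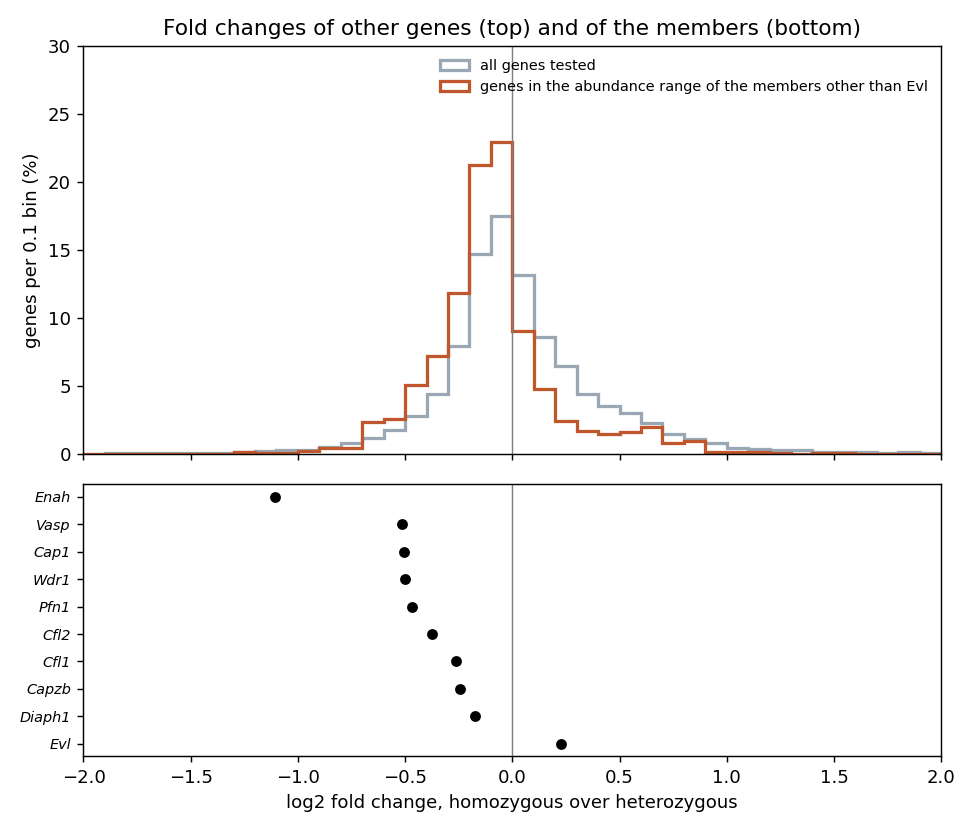
Log2 fold changes, homozygous over heterozygous, as the percentage of genes per bin for all 18192 genes tested and for the 1810 genes of like abundance (top), and for each of the 10 genes (bottom). Genes beyond 2 in either direction are not drawn. Enah, at -1.10, lies far to the left, while Diaph1, at -0.17, lies within the bulk of the other genes.

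Promoters are shown because serum response factor binds the CArG box, a pair of C, 6 bases that are each A or T, and a pair of G. RefSeq promoter windows on GRCm38.p6, each of 300 bases from 250 before to 50 after a transcription start, were at hand for 9 of the 10 genes in 10 windows, Evl having 2. An exact CArG box was in 0 of the 10 windows and in 1.63% of all 32851 windows. The box reads the same on both strands, so 1 search covers both. With 1 mismatch allowed, 3 of the 10 windows held a match, against 21.1% of all windows. In Vasp (chr7:19271805-19272104, minus strand) the match began 31 bases before the start, in Wdr1 (chr5:38561650-38561949, minus strand) 53 bases before it and in Cfl1 (chr19:5490205-5490504, plus strand) 165 bases before it. In the windows below the matches are in capitals. The window of Enah (chr1:182019931-182020230, minus strand), whose level differed most between the groups, is given for comparison and holds none. No match says only that these letters are not in this window, and a match is not shown to be a binding site.
Vasp: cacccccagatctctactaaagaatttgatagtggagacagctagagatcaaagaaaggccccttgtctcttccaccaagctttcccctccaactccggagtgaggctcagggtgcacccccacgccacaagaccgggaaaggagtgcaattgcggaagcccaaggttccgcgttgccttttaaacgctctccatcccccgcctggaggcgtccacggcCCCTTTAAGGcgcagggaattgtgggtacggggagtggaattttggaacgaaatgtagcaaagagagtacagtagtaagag
Wdr1: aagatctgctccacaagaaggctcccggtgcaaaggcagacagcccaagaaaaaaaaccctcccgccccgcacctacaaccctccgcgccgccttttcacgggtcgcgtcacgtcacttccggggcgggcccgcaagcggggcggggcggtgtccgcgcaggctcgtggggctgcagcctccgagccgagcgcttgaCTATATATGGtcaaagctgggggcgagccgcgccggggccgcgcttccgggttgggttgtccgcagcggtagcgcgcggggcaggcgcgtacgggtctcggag
Cfl1: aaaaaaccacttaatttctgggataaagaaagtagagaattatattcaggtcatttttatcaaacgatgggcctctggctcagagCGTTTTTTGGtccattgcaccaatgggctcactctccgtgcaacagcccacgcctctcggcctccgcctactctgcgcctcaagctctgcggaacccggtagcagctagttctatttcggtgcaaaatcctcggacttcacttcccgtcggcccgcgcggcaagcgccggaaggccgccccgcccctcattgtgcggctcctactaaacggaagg
Enah: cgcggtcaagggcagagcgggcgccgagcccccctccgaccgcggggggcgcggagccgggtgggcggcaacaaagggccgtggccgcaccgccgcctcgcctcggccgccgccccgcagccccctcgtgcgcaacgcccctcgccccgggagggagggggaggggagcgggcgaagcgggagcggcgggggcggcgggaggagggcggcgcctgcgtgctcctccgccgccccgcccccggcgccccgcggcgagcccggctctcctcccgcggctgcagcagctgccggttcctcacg

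Among the elongation factors, Enah (GRCm38 chromosome 1, 181896384 to 182019990) showed the widest difference. Enah, also called Mena, is an Ena/VASP protein that gathers profilin-bound actin at growing filament ends. It stood at 754, 1076 and 1334 CPM in heterozygous replicates 1, 2 and 3 and at 443 and 538 CPM in homozygous replicates 2 and 3. The lowest heterozygous library thus exceeded the highest homozygous library by 216 CPM. The log2 fold change was -1.10 (SE 0.239), and 0.731% of all genes tested had a lower one. Enah was also the most variable of the 10 genes among the controls, with a coefficient of variation of 27.5% against 3.98% to 11.6% in the other 9. Among the heterozygous libraries it was highest where the skeletal muscle markers were lowest (10.3 CPM in replicate 3) and lowest where they were highest (685 CPM in replicate 1). In the homozygous pair the library with more of those markers, replicate 3, also had more Enah. The part of that tissue in the Enah values was not tested. Without heterozygous replicate 3 the log2 fold change was -0.88, and without heterozygous replicate 1 it was -1.30.

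Vasp (chromosome 7, 19256929 to 19271817), the founding member of the same family and a protein of focal adhesions, differed less and varied less. It stood at 154, 161 and 180 CPM in the 3 controls and at 120 and 111 CPM in the 2 knockouts, with no overlap. Its log2 fold change was -0.52 (SE 0.106). Within each library Enah gave 4.90, 6.68 and 7.40 times the CPM of Vasp in heterozygous replicates 1 to 3 and 3.71 and 4.83 times in the homozygous libraries. This ratio does not depend on the scaling between libraries, and its groups lay side by side without overlap, the closest libraries being heterozygous replicate 1 and homozygous replicate 3.

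Evl (chromosome 12, 108554720 to 108688516), the third Ena/VASP gene and one known from blood cells, was rare. It stood at 5.54, 6.43 and 6.48 CPM in the 3 controls and at 8.17 and 6.24 CPM in the 2 knockouts, from 163 to 231 counts per library. The homozygous replicate 3 value lay inside the heterozygous range, so the groups overlapped. The log2 fold change of 0.23 (SE 0.177) was 0.02 without homozygous replicate 2 and 0.41 without homozygous replicate 3. Macrophage markers, higher in the homozygous libraries, were highest in homozygous replicate 3 (622 CPM), which was not the library with the most Evl, and their part was not tested. Of the exonic bases of Evl, 278 overlap the opposite-strand gene Degs2, and the strand setting of the counting is not given in the sources used here.

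Diaph1, a formin that elongates unbranched filaments, showed the smallest difference of the 9 lower genes. It stood at 101, 99.2 and 110 CPM in the 3 controls and at 89.7 and 93.9 CPM in the 2 knockouts. The groups were separated by 5.29 CPM, and the log2 fold change was -0.17 (SE 0.0929), or -0.11 without heterozygous replicate 3. Of all genes tested, 23.9% had a lower log2 fold change than Diaph1.

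Profilin 1, encoded by Pfn1 (chromosome 11, 70651850 to 70654644), loads monomers with ATP and hands them to formins and Ena/VASP proteins. Pfn1 stood at 198, 188 and 178 CPM in the 3 controls and at 134 and 137 CPM in the 2 knockouts. The 2 homozygous libraries nearly coincided and lay 40.6 CPM below the lowest control. The log2 fold change was -0.47 (SE 0.0931). It kept its direction with every library left out in turn, between -0.49 and -0.43.

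The severing factors differed by unequal amounts. Wdr1 (chromosome 5, 38526813 to 38563221), also called Aip1, works with cofilin to break filaments apart, and it was the second most abundant of the 10 genes in CPM. It stood at 413, 519 and 453 CPM in the 3 controls and at 306 and 347 CPM in the 2 knockouts, without overlap. The log2 fold change was -0.50 (SE 0.129), ranging from -0.59 to -0.39 with 1 library left out.

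Cfl1 (chromosome 19, 5490455 to 5495201), the cofilin of most cell types, stood at 171, 180 and 162 CPM in the 3 controls and at 138 and 146 CPM in the 2 knockouts, giving -0.26 (SE 0.094) as log2 fold change. Cfl2 (chromosome 12, 54858809 to 54862877), the cofilin of muscle, stood at 142, 159 and 154 CPM in the 3 controls and at 104 and 130 CPM in the 2 knockouts, giving -0.37 (SE 0.121) as log2 fold change. Neither overlapped between groups, though the gaps were only 15.6 and 12.7 CPM. The Cfl2 value rests more on single libraries, since it was -0.54 without homozygous replicate 3 and -0.23 without homozygous replicate 2. Skeletal muscle markers summed to 685, 329 and 10.3 CPM in the same 3 controls and to 1015 and 2756 CPM in the 2 knockouts. Of the homozygous pair, replicate 3 had more of both Cfl2 and these markers, while among the controls the replicate with the most markers had the least Cfl2. Their part in the Cfl2 values was not tested. The CPM ratio of Cfl2 to Cfl1 overlapped between groups, at 0.832, 0.883 and 0.951 in the controls against 0.755 and 0.887 in the knockouts. The ratio of Wdr1 to Cfl1 was 2.41, 2.89 and 2.80 in the controls against 2.22 and 2.37 in the knockouts, lower in the latter without overlap by a narrow margin. The ratio of Wdr1 to Dstn, a cofilin family gene described below, went the other way without overlap. That ratio was 0.325, 0.407 and 0.429 in the controls against 0.486 and 0.458 in the knockouts. Of the exonic bases of Cfl1, 468 overlap the opposite-strand gene Snx32, and 12.4% of the 100-base words of its longest transcript also occur in Snx32 or Gm6180, so part of its counts is uncertain.

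Cap1 (chromosome 4, 122859047 to 122886056), a cyclase-associated protein, strips cofilin-bound monomers and recharges them. It stood at 320, 357 and 320 CPM in the 3 controls and at 227 and 242 CPM in the 2 knockouts, 78.4 CPM apart at the closest. The log2 fold change was -0.51 (SE 0.101). Capzb (chromosome 4, 139192899 to 139291818) encodes the beta subunit of capping protein, which closes barbed ends. It stood at 124, 118 and 115 CPM in the 3 controls and at 98.8 and 102 CPM in the 2 knockouts, with no overlap, and its log2 fold change was -0.24 (SE 0.0883). It had the smallest coefficient of variation of the 10 among the controls, 3.98%.

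Summed over the 10 genes, the level was 2383, 2863 and 3012 CPM in the controls and 1669 and 1854 CPM in the knockouts. Enah alone made up 31.7%, 37.6% and 44.3% of this sum in the controls, against 26.5% and 29.0% in the knockouts. Without Enah the sums were 1629, 1786 and 1678 CPM against 1226 and 1316 CPM, so the groups stayed apart and the controls lay closer together.

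For levels between genes, CPM was divided by the exonic length of each gene in GENCODE M21 in kilobases. On that scale the heterozygous means ran from 95.1 CPM per kb for Cap1 through 78.1 for Pfn1, 63.1 for Vasp, 60.1 for Cfl1, 51.9 for Wdr1, 49.2 for Enah, 46.5 for Cfl2, 36.0 for Capzb and 16.3 for Diaph1 to 2.09 for Evl. Neighbours from Vasp to Cfl2 in this order had overlapping heterozygous libraries, while Cap1, Pfn1, Capzb, Diaph1 and Evl did not overlap with their neighbours. The order depends on the length used. The exons of Wdr1 cover 8.899 kb against 3.909 kb in its longest transcript, and those of Enah 21.45 kb against 11.23 kb. With the longest transcript as length Wdr1 went from rank 5 to rank 2 at 118 CPM per kb. Enah went from rank 6 to rank 4 at 93.9 CPM per kb, above Vasp at 74.5. Cap1 stayed at rank 1 and Diaph1 and Evl at ranks 9 and 10. The longest transcripts of Wdr1 and Pfn1 have 1 exon each, and all exons of Pfn1 merge into 2. These lengths may therefore not be those of the spliced mRNA. The ranks, that of Cap1 included, hold only for these gene models.

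The paralogs of these genes were compared within families on the same scale. Destrin, encoded by Dstn (chromosome 2, 143915320 to 143943324), is the third cofilin family member, and it made up 84.1% to 86.5% of the family in heterozygous and 80.4% to 81.3% in homozygous libraries. Dstn stood at 1269, 1273 and 1055 CPM in the 3 controls and at 629 and 758 CPM in the 2 knockouts, giving -0.79 (SE 0.14) as log2 fold change with an edgeR adjusted p of 0.104 and a DESeq2 adjusted p of 2.22e-05. Its CPM ratio to Cfl1 was 7.41, 7.09 and 6.52 in the controls against 4.55 and 5.18 in the knockouts, without overlap. The share of Cfl1 in the family was accordingly 7.84% to 8.68% against 10.6% to 11.9%.

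In the Ena/VASP family Enah held 36.7% to 46.7% in heterozygous and 29.9% to 36.0% in homozygous libraries. Evl held 1.66% to 1.96% against 3.04% to 4.02%. The CPM of Evl itself overlapped between groups, while those of Enah and Vasp were lower in the homozygous libraries. The size of every family share depends on the gene length used. With the longest transcript as length, Enah averaged 93.9 CPM per kb against 74.5 for Vasp in heterozygous libraries. In homozygous libraries it averaged 43.7 against 52.1. Cap2, the muscle paralog of Cap1, stood lower too, at 91.0, 98.1 and 96.6 CPM against 62.7 and 73.9 CPM, or -0.48 on the log2 scale (SE 0.105; edgeR adjusted p = 0.12; DESeq2 adjusted p = 0.00587). The share of Cap1 in that pair overlapped between groups, at 79.8% to 81.2% and 79.5% to 81.2%. Pfn1 held at least 92.3% of the profilin family in every library, and Pfn2, at 0.11 (SE 0.254), overlapped between groups. Diaph1 held 59.3% to 61.0% of the diaphanous formins in heterozygous and 61.6% to 63.2% in homozygous libraries, with Diaph2 at -0.33 (SE 0.107; edgeR adjusted p = 0.214). For capping protein, the alpha subunit genes Capza1 (-0.13, SE 0.118) and Capza2 (-0.10, SE 0.0968) overlapped between groups, unlike Capzb. Capza1 shares 63.1% of its 100-base words with other genes, so its value is uncertain.

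**Figure D3:**
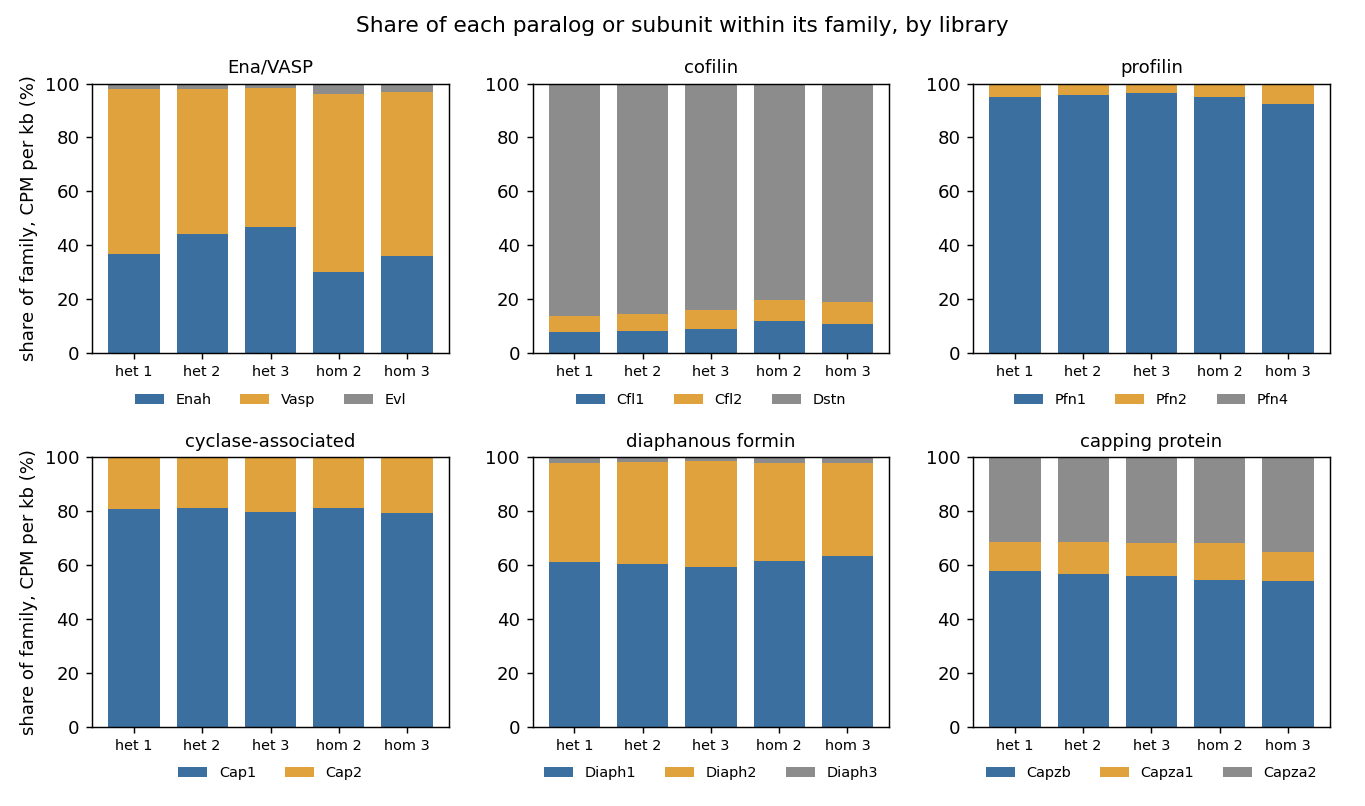
Share of each paralog or subunit in its family, in percent of the CPM per kilobase of exonic length, for each library (het, heterozygous; hom, homozygous). Dstn holds 80.4% or more of the cofilin family in every library, and the share of Enah is smaller in the homozygous libraries.

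The wider set of actin filament genes lay on both sides of no change. It comprised 76 genes in 5 lists by role, of which 74 were tested and Pfn3 and Capza3 were not. By edgeR 0 of 74 were called in either direction (0.0% of all genes), with 13.5% lower and 12.2% higher at an unadjusted p under 0.05, against 6.75% and 9.04% of all genes. DESeq2 called Dstn, Coro1c, Tmsb4x, Cap2 and Svil lower and Raph1 and Eps8 higher. These were 5 and 2 of the 74, or 6.76% and 2.7%, against 2.26% and 2.87% of all 18192 genes that passed the same filter. The median log2 fold change was 0.04, with 33 genes negative and 41 positive. The homozygous libraries lay below all heterozygous ones for 24.3% and above them for 18.9% of the 74, against 18.2% and 17.4% of all genes tested.

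By role, the cofilin family and its regulators held both directions. DESeq2 called Dstn, Cap2 and Coro1c lower among 21 genes and 0 higher, and the list median was 0.08. These calls were 14.3% lower and 0.0% higher, against 2.26% and 2.87% of all genes tested. As for the whole set, nothing is read from these shares. Coro1c, a coronin that binds filament sides, stood at 213, 235 and 268 CPM in the 3 controls and at 158 and 159 CPM in the 2 knockouts (log2 fold change -0.59, SE 0.12; edgeR adjusted p = 0.114; DESeq2 adjusted p = 0.00106). Ssh2, a phosphatase that activates cofilin, stood higher at 0.29 (SE 0.121; edgeR adjusted p = 0.309). Among the monomer-binding and Ena/VASP partner genes, Tmsb4x, thymosin beta 4, which sequesters monomers, stood at 1131, 1253 and 1004 CPM against 711 and 858 CPM (-0.53, SE 0.141; edgeR adjusted p = 0.16; DESeq2 adjusted p = 0.0136). Raph1, lamellipodin, which recruits Ena/VASP proteins to the membrane, went the other way, at 69.7, 72.3 and 73.6 CPM against 102 and 89.6 CPM (0.41, SE 0.094; edgeR adjusted p = 0.129; DESeq2 adjusted p = 0.0115).

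The 16 genes of the Arp2/3 complex, which branches filaments, and its activators had a median of -0.12 and 0 calls by either tool. Over all genes tested DESeq2 called 2.26% lower and 2.87% higher, and edgeR 0.0%. Their 3 most abundant genes were Actr3 at -0.32 (SE 0.124), Arpc2 at -0.22 (SE 0.0962) and Arpc1b at -0.12 (SE 0.0897). The 13 formins other than Diaph1 had a median of 0.03 and also 0 calls by either tool, with Daam1 at -0.07 (SE 0.0933) and Fmnl3 at 0.14 (SE 0.115). At those shares over all genes, lists of 13 and 16 genes are too short for 0 calls to be read as a result. Among 18 capping and severing genes, with a median of 0.11, Svil, supervillin, was at -0.42 (SE 0.103; edgeR adjusted p = 0.141; DESeq2 adjusted p = 0.00572) and Flii at -0.24 (SE 0.0885). Gsn, gelsolin, the most abundant gene of all 5 lists, stood at 2055, 2003 and 1626 CPM in the 3 controls and at 2130 and 2014 CPM in the 2 knockouts, with overlapping groups.

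**Figure D4:**
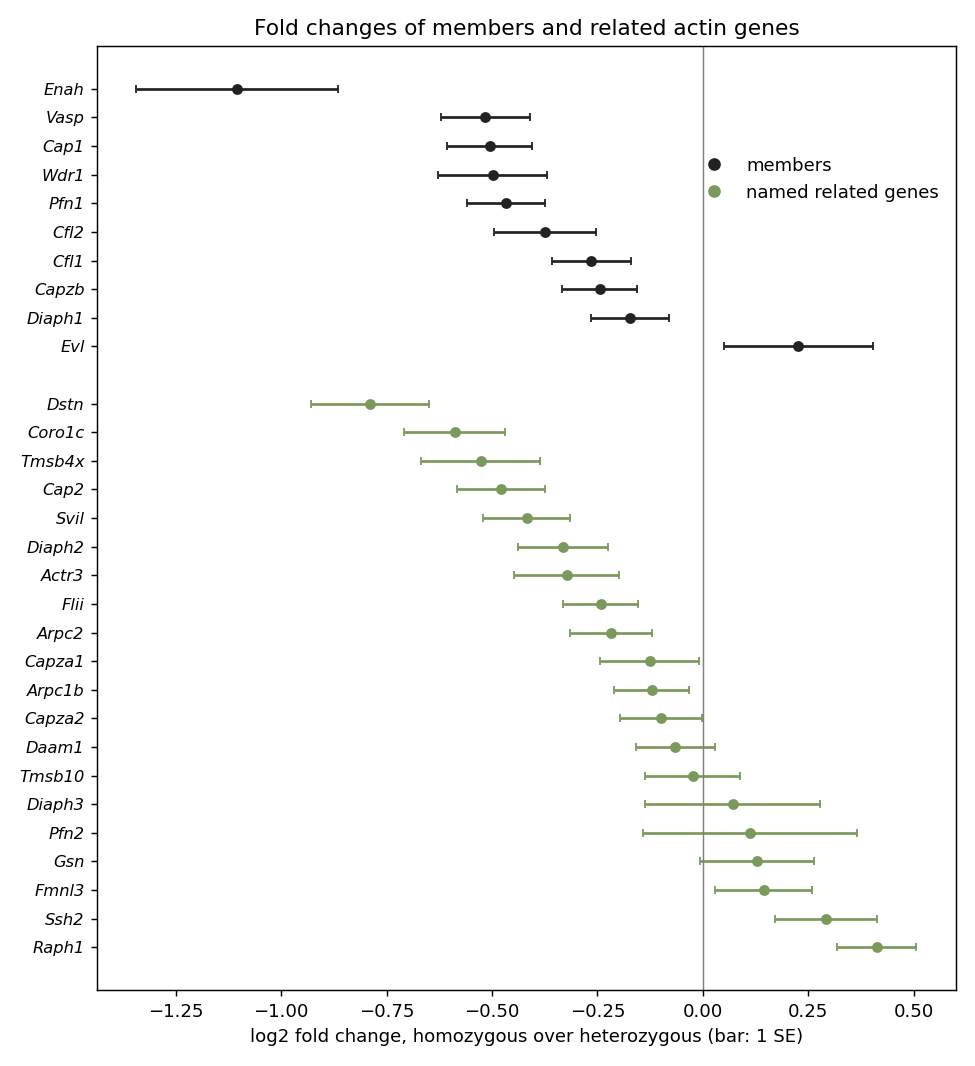
Log2 fold changes, homozygous over heterozygous, with bars of 1 SE, for the 10 genes (black) and the named related genes (green). Of the related genes drawn, Dstn at -0.79 and Coro1c at -0.59 lie farthest left and Raph1 at 0.41 farthest right, and 0 of those drawn passed edgeR's adjusted threshold.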

How the data were processed

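The authors deposited unnormalised read counts by gene symbol for 5 libraries, with columns named as in the labels. Homozygous replicate 1 was not analysed here. Per the submitters' processing notes, the tools were STAR 2.7.0f, fastp 0.20.0 and Subread 1.6.4 with its featureCounts, on GRCm38. The annotation release and strand setting are not given in those sources. Genes were filtered with filterByExpr, scaled by TMM and tested on group alone with edgeR 4.0.16 (R 4.3.3), 18192 genes in all, with Benjamini-Hochberg adjustment and a threshold of 0.05. DESeq2 1.42.0 and limma-voom (limma 3.58.1) were alternatives, with other scalings and filters, a replicate block, omission of mitochondrial genes and each library left out. The script was tested on simulated data. CPM are TMM-scaled counts; fold changes are homozygous over heterozygous, with the standard error (SE) of the fit. Coordinates and lengths are from GENCODE M21 (GRCm38), and promoters from RefSeq (GRCm38.p6).

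The 10 genes and the lists were chosen with earlier results of these data known. Named beside them were the 3 most abundant genes of each role list, any that edgeR called (none did), close paralogs or partners, Srf and the most abundant gene of each marker list, of which only those that bear on a result are printed. Eps8 and Limk1 were chosen after their values were seen. P-values set the difference between groups against the spread within them, over 5 separately frozen aortae in all. Part of that spread is estimated from other genes. Every 2 libraries differed by more than sampling noise. Words of 100 bases shared with other genes were counted on both strands of the GENCODE transcripts.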

Additional observations from a re-analysis of the deposited data

How the results depend on the processing

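Under 13 alternatives each, which are not independent of one another, 9 of the 10 genes stayed lower. The median log2 fold change over all 10 lay between -0.47 and -0.32, both reached with 1 library left out. edgeR without the low-count filter called 982 genes higher and 432 lower of 30400, with 3 and 5 among the related actin genes; DESeq2 called 524 and 411, with 2 and 5. limma-voom called 1 lower. With 1 library left out, edgeR called 0 to 139 higher and 0 to 9 lower, both upper values without heterozygous replicate 2 (1 higher without homozygous replicate 3), and 0 related genes. A homozygous group of 1 library is assumed to vary like the other. Replicate numbers are shared by 2 pairs, but no label says that they pair mice, so they are not taken to do so. Deviations of the same-numbered libraries correlated at -0.0099 and -0.19. With 2 homozygous libraries their deviations mirror each other, so these values cannot decide on pairing. The replicate block gave 3 higher and 2 lower calls, with Tmsb10 at 0.021 in place of -0.02. Heterozygous replicate 1 has no partner in that block, so its fold changes are close to those without this library. Enah was at -1.30 in both. With 1 library left out Tmsb10 ranged from -0.078 to 0.028, Pfn2 from -0.30 to 0.42 and Capza1 from -0.29 to 0.023. The causes were not tested.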

Other observations

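Limk1, a kinase that inactivates cofilin, stood at 7.72, 8.36 and 8.32 CPM in heterozygous and at 11.5 and 10.0 CPM in homozygous libraries (edgeR adjusted p = 0.216). Eps8, a capping and bundling protein that DESeq2 called higher, stood at 13.0, 13.6 and 14.1 CPM against 17.7 and 21.2 CPM, with an edgeR adjusted p of 0.127.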
